A study of Mus musculus with 16 samples.

Results

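The genes described here code for the translation initiation factors and their direct regulators, taken as every row of the count table whose symbol starts with Eif followed by a digit from 1 to 6, apart from Eif2s3x, Eif2s3y and symbols ending in -ps. This rule gave 54 of 54392 rows, and they were grouped by the factor complex that their products belong to. Initiation factors bring the small ribosomal subunit, the initiator tRNA and the start codon of an mRNA together. eIF1, eIF1A and eIF3 ready the small subunit, eIF2 delivers the initiator tRNA with GTP, eIF2B recharges eIF2 with GTP, and eIF4F, built from a cap-binding protein, a scaffold and an RNA helicase, recruits the mRNA. The step is held back by kinases that phosphorylate eIF2 and by eIF4E-binding proteins, which the nutrient-sensing kinase complex mTORC1 switches off. The colonic epithelium is renewed all the time from dividing cells at the crypt base, so its cells have a continuous need for protein synthesis.

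RNA was sequenced from colonocytes, the cells lining the colon, of C57BL/6 mice that had eaten either fish oil and pectin (7 libraries) or corn oil and cellulose (9 libraries) for 3 weeks. Oil and fibre changed together, so their effects cannot be told apart. The labels give no age or sex and do not give the number of mice behind the libraries of a diet, so a p-value speaks only of the spread between libraries. Library names came in 2 forms, with a GC prefix (5 fish oil/pectin and 5 corn oil/cellulose libraries) or without it (2 fish oil/pectin and 4 corn oil/cellulose libraries), whose meaning the labels do not give. All 7 fish oil/pectin libraries and 4 of the corn oil/cellulose libraries have name numbers of a lower series, and the other 5 corn oil/cellulose libraries of a higher one, so number series and diet are partly confounded. Raw read counts per gene were tested with edgeR's quasi-likelihood test with the name form as a term, and p-values were adjusted over all genes (Benjamini-Hochberg) and called under 0.05. Fold changes are fish oil/pectin over corn oil/cellulose, and CPM are read counts divided by the TMM-scaled library size and not adjusted for the name form.

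Libraries held 16212831 to 19512755 counts with fish oil/pectin and 13996288 to 19331984 with corn oil/cellulose, and the 54 genes took 0.885% to 1.01% of a library. All 11 epithelial markers were detected in every library, and 4 were higher with fish oil/pectin (Krt8, Krt20, Cdx2 and Lgals4). The 11 markers summed to 28300 to 33800 CPM in GC-named fish oil/pectin libraries against 23500 to 26100 CPM in GC-named corn oil/cellulose libraries, and to 21500 to 21800 CPM with fish oil/pectin against 21500 to 23600 CPM with corn oil/cellulose in the others. In contrast, the 8 fibroblast and smooth muscle markers summed to at most 1.67 CPM with fish oil/pectin and 4.41 CPM with corn oil/cellulose. Leukocyte markers differed between the diets, with 7 of the 10 that could be tested lower and 0 higher with fish oil/pectin. They summed to 33 to 106 CPM (median 40.9) with fish oil/pectin and 27.8 to 115 CPM (median 69.8) with corn oil/cellulose, and their median log2 fold change was -1.42 in GC-named libraries and -0.01 in the others. The sum leaned on Cd74, at 8.5 to 86.2 CPM over all libraries (median 17.6), which did not pass (0.58, adjusted p = 0.347). Ptprc came next, at a median of 6.31 CPM, and was lower (-1.3, adjusted p = 0.00198). Markers of cycling cells were higher with fish oil/pectin for 11 of 12 genes, summing to 698 to 1520 CPM (median 1130) against 598 to 975 CPM (median 754) with corn oil/cellulose. Library 7 of the fish oil/pectin group held the highest level of all 16 libraries for 26 of the 52 initiation factor genes tested.

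Most initiation factor genes were higher with fish oil/pectin, by small amounts. Of the 52 genes tested 32 (61.5%) passed the threshold as higher, against 21.7% of all 14321 genes tested, and 3 (5.77%) as lower, against 20.1%. In either direction 41.7% of all genes passed. The median log2 fold change was 0.21 over the 52 genes and -0.004 over all genes. The increases ran from 0.13 to 0.60 on the log2 scale, or 1.10-fold to 1.52-fold, and 0 genes moved by a log2 fold change of 1 or more. Scaled by total counts alone, 24 members were higher and 4 lower, beside 2247 and 3779 of all genes, so 37.3% of all calls were higher against 51.9% with TMM scaling. In the lower series of name numbers alone 20 members were higher and 1 lower, beside 1194 and 1056 of all genes. The remaining members, Eif4e1b and the noncoding Argonaute-type symbol Eif2c5, had 0 counts in every library. In bulk RNA a change in the share of a cell type and a change in RNA per cell cannot be told apart. Libraries of the diets did not overlap for 6 genes that were higher with fish oil/pectin (Eif1ad, Eif1ax, Eif2b1, Eif3e, Eif3i and Eif5a), against 2.35% of all genes, and for 1 gene that was lower (Eif4a2), against 0.999%.

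**Figure D1:**
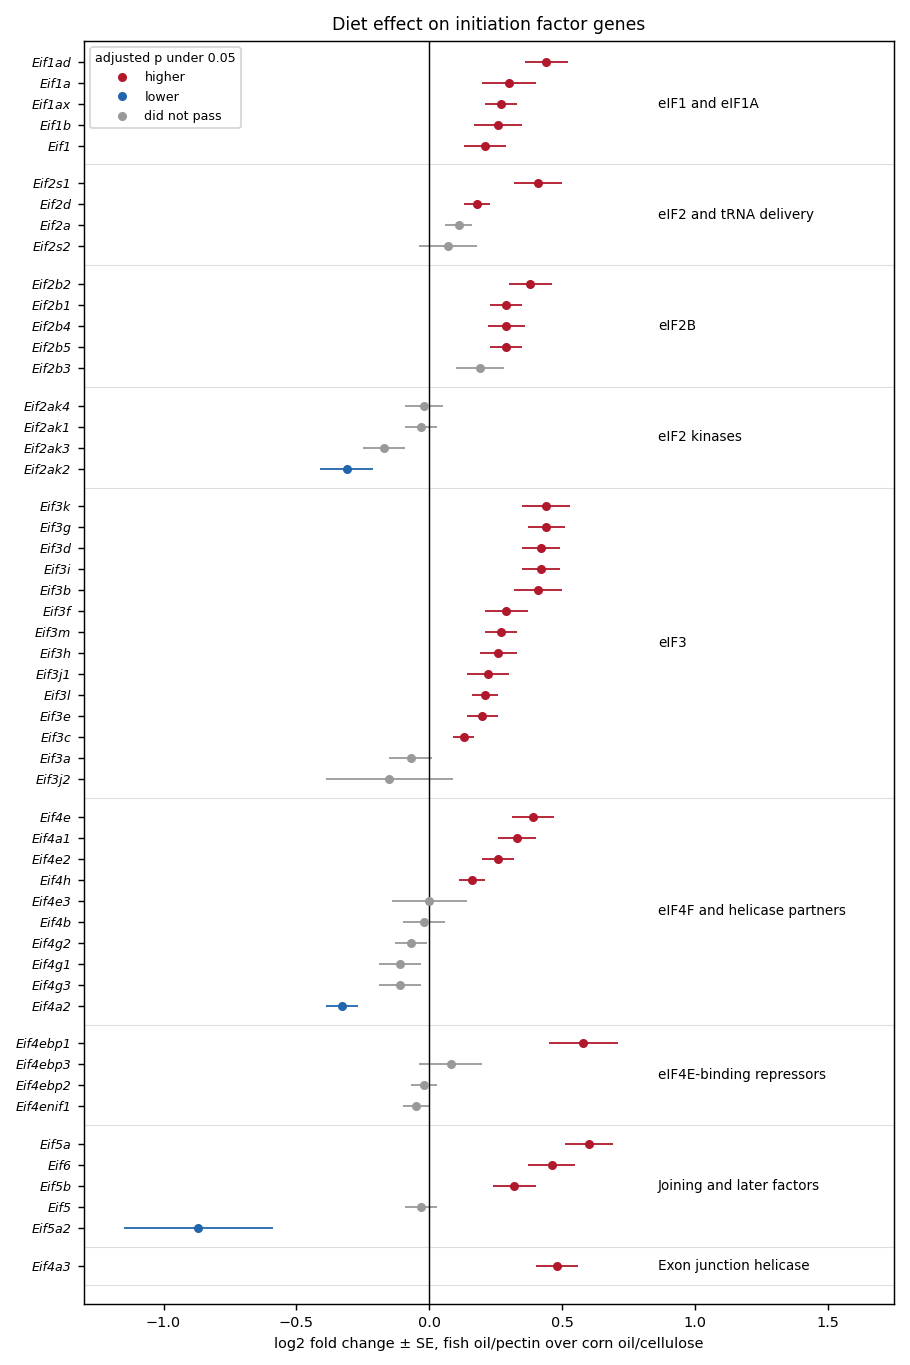
Log2 fold change of fish oil/pectin over corn oil/cellulose (x axis) for the 52 initiation factor genes tested, grouped by complex; points are edgeR estimates, bars are ± SE, and colour gives the call at an adjusted p of 0.05. Of these genes 32 lie to the right of 0 as called higher, and Eif2ak2, Eif4a2 and Eif5a2 are the 3 called lower.

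Levels were compared between genes per length, as CPM per kb of annotated exon, with medians over all 16 libraries. Eif3h (175) and Eif5a (174) stood highest, followed by Eif1 (149), Eif4b (132), Eif3f (120) and Eif3c (106). Paralogs differed widely in this level. Among the scaffolds, Eif4g2 and Eif4g1 reached 93 and 85.3 CPM per kb and Eif4g3 reached 10.7. Of the cap-binding proteins, the repressive relative Eif4e2 (15.8) stood above Eif4e itself (8.35) and Eif4e3 (2.3). The eIF4A helicases Eif4a1 (78.8) and Eif4a2 (68.5) were close in level, as were Eif1a and Eif1ax (19 each). At the other end, Eif5a2 had 0.0881 and Eif3j2, the less abundant copy of the eIF3j gene, 0.309 CPM per kb. Exon length here joins the exons of all annotated transcripts, so a gene with a long or rarely used end reads low on this scale.

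**Figure D2:**
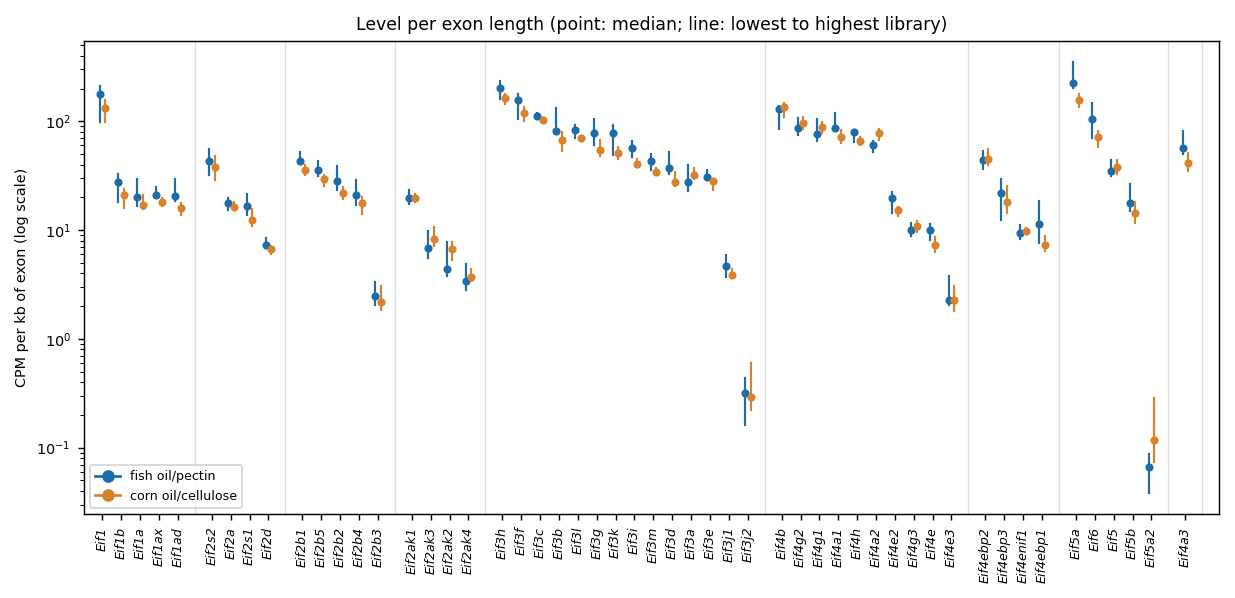
Level of each initiation factor gene as CPM per kb of exon (y axis, log scale) by diet, grouped by complex; points are medians and lines run from the lowest to the highest library (7 fish oil/pectin, 9 corn oil/cellulose). Eif3h and Eif5a stand highest and Eif5a2 lowest.

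All 5 genes of the eIF1 and eIF1A group were higher with fish oil/pectin, with a median log2 fold change of 0.27. Eif1, whose product keeps the scanning ribosome from starting at the wrong codon, lay between 206 and 445 CPM (median 378) with fish oil/pectin and between 205 and 330 CPM (median 278) with corn oil/cellulose. Its ranges overlapped and its log2 fold change of 0.21 ± 0.08 (SE, adjusted p = 0.0331) was among the smaller ones, with 0.35 in GC-named libraries and -0.05 in the others. The call on Eif1 was lost without any 1 of 7 libraries (fish oil/pectin 4, 6 or 7, corn oil/cellulose 5, 6, 8 or 9), where its log2 fold change was 0.17 to 0.21. Eif1ad (ENSMUSG00000024841.8, chromosome 19, 5366741 to 5371526, plus strand, GRCm38), which codes for a protein with an eIF1A-like domain, lay at 52 to 82.1 CPM (median 57.6) with fish oil/pectin and 38.3 to 50.1 CPM (median 44.5) with corn oil/cellulose. Every fish oil/pectin library stood above every corn oil/cellulose library for Eif1ad, and its log2 fold change was 0.44 ± 0.08 (adjusted p = 0.000811), at 0.49 in GC-named libraries and 0.34 in the others. Its exons overlap those of Banf1 on the opposite strand. Eif1ax, the X-linked eIF1A gene, also separated the diets, with 105 to 131 CPM (median 110) against 86.9 to 103 CPM (median 95.9) with corn oil/cellulose and a log2 fold change of 0.27 ± 0.06 (adjusted p = 0.00163). Eif1a rose by 0.30 ± 0.10 on the log2 scale (adjusted p = 0.022) and Eif1b, a close relative of Eif1, by 0.26 (adjusted p = 0.0251). Without fish oil/pectin library 2 Eif1a did not pass (0.26, adjusted p = 0.0614), and neither did Eif1b without corn oil/cellulose library 5 (0.23) or 9 (0.22). Eif1a and Eif1ax are near copies, and how reads were divided between them is uncertain.

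Of the genes that deliver the initiator tRNA, 2 of 4 were higher with fish oil/pectin. Eif2s1 (ENSMUSG00000021116.10, chromosome 12, 78861819 to 78887010, plus strand, GRCm38) codes for the alpha subunit of eIF2, the subunit that the stress kinases phosphorylate. It lay at 67.6 to 106 CPM (median 83.2) with fish oil/pectin and 54.7 to 76.6 CPM (median 61.8) with corn oil/cellulose. The ranges met over a narrow stretch, and the log2 fold change of 0.41 ± 0.09 (adjusted p = 0.0014) held in GC-named (0.38) and other libraries (0.48). Eif2d, whose product takes part in reinitiation and ribosome recycling, had 51.2 to 62.8 CPM (median 53.7) against 44.1 to 52.8 CPM (median 49.1) with corn oil/cellulose. This was a small difference of 0.18 ± 0.05 on the log2 scale (adjusted p = 0.0157), with 0.20 in GC-named libraries and 0.13 in the others, and Eif2d shares exon positions with Rassf5 on the opposite strand. Eif2s2, the beta subunit, had a log2 fold change of 0.07 and Eif2a, a separate initiator tRNA factor, of 0.11 (adjusted p = 0.106), and neither passed.

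eIF2B, the exchange factor that returns eIF2 to its GTP form, was higher in 4 of its 5 subunits, with a median log2 fold change of 0.29. The catalytic epsilon subunit Eif2b5 lay at 81.4 to 113 CPM (median 91.9) with fish oil/pectin and 66.6 to 83.7 CPM (median 75.8) with corn oil/cellulose. Its ranges overlapped slightly, and its log2 fold change was 0.29 ± 0.06 (adjusted p = 0.000987), at 0.34 in GC-named libraries and 0.21 in the others. Eif2b1, the alpha subunit, had 104 to 135 CPM (median 112) against 83.6 to 103 CPM (median 92.7) with corn oil/cellulose, without overlap (0.29 ± 0.06, adjusted p = 0.00158). Eif2b2, the beta subunit, rose the most at 0.38 (adjusted p = 0.0014), with 43.7 to 73 CPM (median 53.7) against 36.6 to 47.3 CPM (median 41.5) with corn oil/cellulose. Eif2b4, the delta subunit, rose by 0.29. Eif2b3, the gamma subunit and by far the lowest of the complex at 2.27 CPM per kb, had a log2 fold change of 0.19 that did not pass (adjusted p = 0.105).

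The 4 eIF2 kinases did not share this direction: 0 were higher, 1 was lower, and their median log2 fold change was -0.10. Eif2ak2 (ENSMUSG00000024079.4, chromosome 17, 78852564 to 78882573, minus strand, GRCm38) codes for PKR, the kinase that viral RNA duplexes activate and that interferon induces. It lay at 19.2 to 39.7 CPM (median 22.4) with fish oil/pectin and 26.9 to 39.5 CPM (median 34.4) with corn oil/cellulose. All 5 GC-named fish oil/pectin libraries fell below every corn oil/cellulose library, whereas the other 2 were among the highest. The log2 fold change over all libraries was -0.31 ± 0.10 (adjusted p = 0.0219), with -0.53 in GC-named libraries and 0.08 in the others, a difference of -0.60 that passed the threshold. The median log2 fold change of leukocyte markers was -1.42 in GC-named libraries and -0.01 in the others. In corn oil/cellulose libraries these markers summed to 69.8 to 115 CPM with the GC prefix and 27.8 to 36.5 CPM without it. Eif2ak2 there lay at 26.9 to 39.5 CPM and at 34.4 to 37 CPM. In fish oil/pectin libraries the markers summed to 35.1 to 48.2 CPM with the prefix. Without it they summed to 33 CPM in library 1 and 106 CPM in library 2. Eif2ak2 there lay at 19.2 to 23.7 CPM with the prefix, and at 35.4 and 39.7 CPM in libraries 1 and 2. These marker sums leaned on Cd74, and a link between Eif2ak2 and leukocyte markers was not tested. With a score of non-epithelial markers as a covariate Eif2ak2 was at -0.19 (adjusted p = 0.442), and 2 of all genes passed. The call was also lost without fish oil/pectin libraries 6 and 7 together (-0.23, adjusted p = 0.101), in the lower series of name numbers alone (-0.18, adjusted p = 0.235), with no name form term (-0.34, adjusted p = 0.0779), with a replicate block (-0.29, adjusted p = 0.181) and with a cycling score (-0.35, adjusted p = 0.145).

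The other kinases did not pass. Eif2ak3, which codes for the endoplasmic reticulum stress kinase PERK, had 33.5 to 59.2 CPM (median 41) with fish oil/pectin and 42.7 to 64.7 CPM (median 50.3) with corn oil/cellulose, and its log2 fold change of -0.17 ± 0.08 missed the threshold (adjusted p = 0.0803; -0.29 in GC-named, 0.03 in the other libraries). It passed when fish oil/pectin library 2 or corn oil/cellulose library 3 was left out. Eif2ak1, the heme-regulated kinase HRI, lay at 97.8 to 134 CPM (median 113) with fish oil/pectin and 104 to 122 CPM (median 112) with corn oil/cellulose (-0.03 ± 0.06, adjusted p = 0.738; 0.00 in GC-named, -0.08 in the other libraries). Eif2ak4, the amino acid starvation kinase GCN2, lay at 21.1 to 36.5 CPM (median 25.1) with fish oil/pectin and 25.6 to 33 CPM (median 27.6) with corn oil/cellulose (-0.02 ± 0.07, adjusted p = 0.82; -0.16 in GC-named, 0.22 in the other libraries). HRI was the most abundant of the kinases per length, at 19.8 CPM per kb, followed by PERK (7.92), PKR (5.9) and GCN2 (3.6).

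eIF3, the largest initiation factor, which holds the small subunit and mRNA together, was higher in 12 of 14 genes, with 0 lower and a median log2 fold change of 0.26. Summed over its genes the complex reached 2736 to 3479 CPM (median 3150) with fish oil/pectin and 2389 to 2744 CPM (median 2531) with corn oil/cellulose. The increase was largest for Eif3g and Eif3k. Eif3g (chromosome 9, 20894349 to 20898623, minus strand, GRCm38), an RNA-binding subunit, lay at 119 to 207 CPM (median 157) with fish oil/pectin and 95 to 132 CPM (median 108) with corn oil/cellulose. It passed at 0.44 ± 0.07 (adjusted p = 0.000508), with 0.53 in GC-named libraries and 0.28 in the others. Eif3k lay at 132 to 248 CPM (median 209) with fish oil/pectin and 120 to 156 CPM (median 137) with corn oil/cellulose (0.44 ± 0.09, adjusted p = 0.00168). Its effect was 0.64 in GC-named libraries and 0.04 in the others, and this difference passed. Eif3i (chromosome 4, 129591960 to 129600648, minus strand, GRCm38), a subunit with WD repeats, had 173 to 243 CPM (median 210) against 143 to 169 CPM (median 151) with corn oil/cellulose. The diets did not overlap for Eif3i, at 0.42 ± 0.07 (adjusted p = 0.000508), with 0.54 in GC-named libraries and 0.19 in the others.

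Eif3d, the subunit that can bind the mRNA cap, rose by 0.42 ± 0.07 (adjusted p = 0.000611), with 164 to 257 CPM (median 186) against 125 to 168 CPM (median 138) with corn oil/cellulose. Eif3b, a core subunit, rose by 0.41 ± 0.09 (adjusted p = 0.00251) and was highest in fish oil/pectin library 7 at 442 CPM. Increases were smaller for Eif3f (0.29), Eif3m (0.27), Eif3h (0.26) and Eif3j1 (0.22). Eif3e, a core subunit also known as a site of mammary tumour virus insertion, had 200 to 239 CPM (median 208) against 157 to 194 CPM (median 189) with corn oil/cellulose. Its libraries did not overlap between the diets, although its log2 fold change was only 0.20 ± 0.06 (adjusted p = 0.00937; 0.26 in GC-named, 0.11 in the other libraries). The subunits Eif3l and Eif3c showed small increases. Eif3l had 254 to 337 CPM (median 306) against 238 to 268 CPM (median 255) with corn oil/cellulose (0.21 ± 0.05, adjusted p = 0.00365; 0.27 in GC-named, 0.09 in the other libraries). Eif3c had 373 to 416 CPM (median 395) against 342 to 375 CPM (median 359) with corn oil/cellulose (0.13 ± 0.04, adjusted p = 0.02; 0.13 in either name form). Without corn oil/cellulose library 9 Eif3c did not pass (0.12, adjusted p = 0.0561), and it lost its call in 11 of 31 alternative settings. Others of these were GC-named libraries alone (0.11, adjusted p = 0.131) and scaling by total counts alone (0.06, adjusted p = 0.307). A replicate block (0.13, adjusted p = 0.199) and removal of the length trend (0.06, adjusted p = 0.234) also belonged to them. Eif3j1 lost its call without any 1 of 7 libraries (fish oil/pectin 2, 6 or 7, corn oil/cellulose 4, 5, 6 or 7; 0.16 to 0.21), and reads of Eif3j1 and its near copy Eif3j2 may have been divided between them.

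Eif3a, the scaffold subunit of eIF3, did not rise with the rest. It lay at 199 to 348 CPM (median 239) with fish oil/pectin and 259 to 324 CPM (median 277) with corn oil/cellulose, and its log2 fold change of -0.07 ± 0.08 did not pass (adjusted p = 0.491). Within the name forms it was lower in GC-named libraries (-0.23, adjusted p = 0.0154) and at 0.22 in the others, and that difference of -0.44 passed. The other eIF3 gene that did not pass, Eif3j2 (-0.15, adjusted p = 0.658), had between 6 and 27 counts per library.

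In eIF4F and its helicase partners the picture was mixed: of 10 genes tested 4 were higher, 1 was lower, and the median log2 fold change was -0.01. The summed level of the group was close between the diets, at 3329 to 3835 CPM (median 3454) with fish oil/pectin and 3447 to 3645 CPM (median 3569) with corn oil/cellulose. Eif4e (ENSMUSG00000028156.12, chromosome 3, 138526179 to 138559696, plus strand, GRCm38), which binds the mRNA cap and is often the limiting part of eIF4F, lay at 48.4 to 67.7 CPM (median 60.6) with fish oil/pectin and 38.1 to 51.9 CPM (median 44.2) with corn oil/cellulose. All fish oil/pectin libraries but 1 stood above the whole corn oil/cellulose range, and the log2 fold change of 0.39 ± 0.08 (adjusted p = 0.000979) was the same, 0.39, in either name form. Eif4e2, a cap-binding relative that acts as a repressor, had 109 to 168 CPM (median 147) against 101 to 123 CPM (median 116) with corn oil/cellulose (0.26 ± 0.06, adjusted p = 0.00364). Unlike Eif4e, it differed between the forms, with 0.39 in GC-named libraries and 0.02 in the others. Eif4h, a cofactor of the helicase, rose by 0.16 ± 0.05 (adjusted p = 0.0122; 0.22 in GC-named, 0.06 in the other libraries), with 362 to 462 CPM (median 444) against 339 to 395 CPM (median 369) with corn oil/cellulose. The related cofactor Eif4b, at 381 to 618 CPM (median 585) with fish oil/pectin and 485 to 651 CPM (median 607) with corn oil/cellulose, did not pass (-0.02).

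The helicase paralogs of eIF4F moved in opposite directions. Eif4a1 (ENSMUSG00000059796.16, chromosome 11, 69666936 to 69672423, minus strand, GRCm38) lay at 352 to 516 CPM (median 378) with fish oil/pectin and 272 to 361 CPM (median 313) with corn oil/cellulose. It passed as higher at 0.33 ± 0.07 (adjusted p = 0.00239), with 0.33 in either name form. Eif4a2 (ENSMUSG00000022884.15, chromosome 16, 23107444 to 23114136, plus strand, GRCm38) lay at 281 to 354 CPM (median 321) with fish oil/pectin and 361 to 455 CPM (median 414) with corn oil/cellulose. No fish oil/pectin library reached the corn oil/cellulose range, and the log2 fold change was -0.33 ± 0.06 (adjusted p = 0.000941), at -0.34 in GC-named libraries and -0.31 in the others. The log2 ratio of Eif4a1 to Eif4a2 within a library, which does not depend on scaling, was -0.01 to 0.88 (median 0.25) with fish oil/pectin and -0.66 to -0.04 (median -0.33) with corn oil/cellulose. The ratios of the diets did not overlap over all libraries, nor within the GC-named libraries (-0.01 to 0.88 with fish oil/pectin, -0.60 to -0.04 with corn oil/cellulose) or the others (0.12 to 0.25 with fish oil/pectin, -0.66 to -0.27 with corn oil/cellulose). The exons of Eif4a2 overlap Rfc4, a DNA replication gene on the opposite strand, and several snoRNA genes, and those of Eif4a1 overlap snoRNA genes. With a score of cycling markers as a covariate neither passed, at 0.06 for Eif4a1 (adjusted p = 0.566) and -0.17 for Eif4a2 (adjusted p = 0.151), nor did they with the non-epithelial score, at 0.28 (adjusted p = 0.172) and -0.29 (adjusted p = 0.132).

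**Figure D3:**
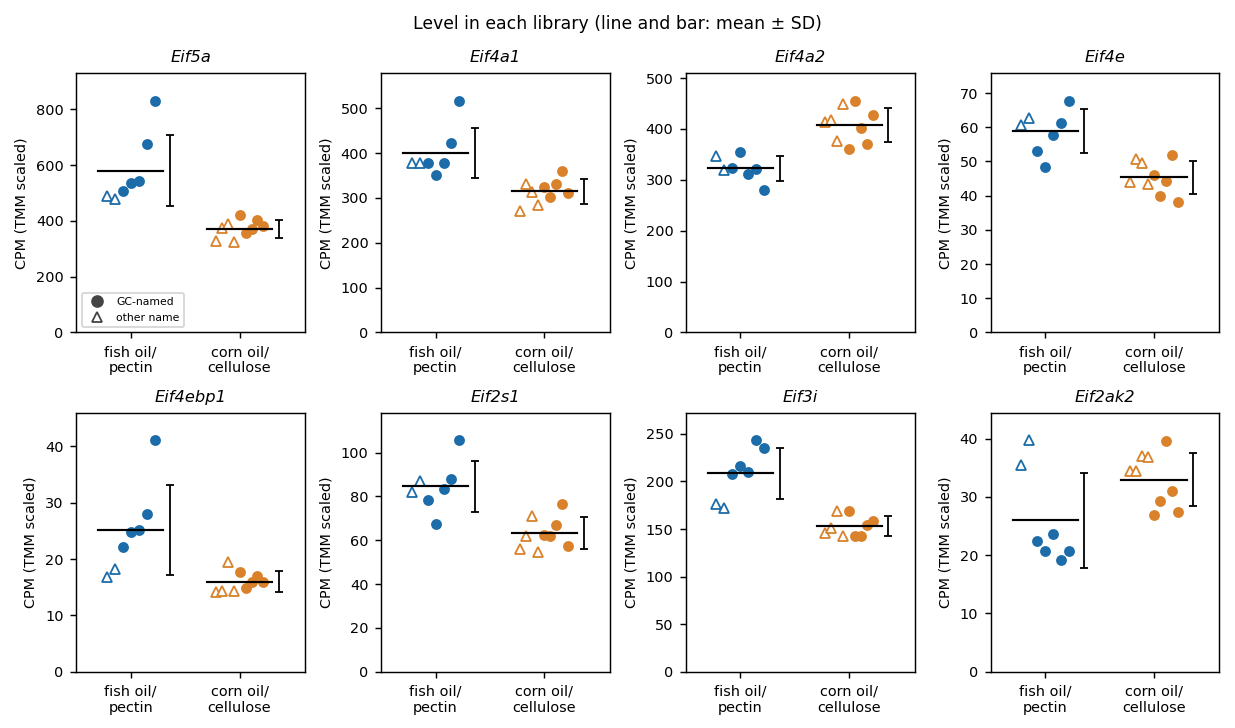
CPM (y axis, TMM scaled, from 0) of 8 initiation factor genes in each library by diet; filled circles are GC-named libraries, open triangles the others, and the line and bar give the mean ± SD (n = 7 fish oil/pectin, n = 9 corn oil/cellulose). Eif5a and Eif3i are higher and Eif4a2 lower with fish oil/pectin in every library, and in Eif2ak2 the open triangles of fish oil/pectin stand apart from its filled circles.

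None of the scaffold genes passed. Eif4g1 lay at 485 to 762 CPM (median 556) with fish oil/pectin and 572 to 712 CPM (median 648) with corn oil/cellulose, and its log2 fold change was -0.11 ± 0.08 (adjusted p = 0.305). Its estimates had opposite signs in the name forms, at -0.31 in GC-named libraries (adjusted p = 0.000907) and 0.26 in the others, which did not pass (adjusted p = 0.206). The difference of -0.57 passed. Eif4g3, its paralog, had -0.11 (adjusted p = 0.265), Eif4g2, a relative that lacks the eIF4E site, had -0.07, and the cap-binding relative Eif4e3 had 0.00. The log2 ratio of Eif4g1 to Eif4g3 within a library overlapped between the diets, at 2.15 to 2.63 with fish oil/pectin and 2.33 to 2.50 with corn oil/cellulose. That of Eif4e to Eif4e2 overlapped too, at -1.77 to -0.79 with fish oil/pectin and -1.69 to -1.0 with corn oil/cellulose. In the libraries without the prefix it did not overlap (-0.88 to -0.79 with fish oil/pectin, -1.34 to -1.0 with corn oil/cellulose).

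The promoters of Eif4a1 and Eif4a2, the pair that moved apart, are printed here from RefSeq (GRCm38.p6), with that of Eif1ad, a gene whose diets did not overlap and which holds the motif most often found among the members. Each runs 5′ to 3′ from 250 bases before to 50 bases after a transcript start, and capitals mark the motifs searched. A window was matched for 42 of the 54 members. The motifs, searched on both strands, were the E-box CACGTG, the ETS site CCGGAAG, the cAMP response element TGACGTCA, CCAAT and TATAAA.
Eif4a1 (chr11:69672374-69672673, minus strand): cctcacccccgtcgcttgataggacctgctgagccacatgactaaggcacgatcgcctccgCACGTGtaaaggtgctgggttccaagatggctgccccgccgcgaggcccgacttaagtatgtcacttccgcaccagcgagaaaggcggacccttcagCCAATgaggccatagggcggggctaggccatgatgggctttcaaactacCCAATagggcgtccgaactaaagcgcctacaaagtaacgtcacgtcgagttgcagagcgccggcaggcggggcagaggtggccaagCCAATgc
Eif4a2 (chr16:23107218-23107517, plus strand): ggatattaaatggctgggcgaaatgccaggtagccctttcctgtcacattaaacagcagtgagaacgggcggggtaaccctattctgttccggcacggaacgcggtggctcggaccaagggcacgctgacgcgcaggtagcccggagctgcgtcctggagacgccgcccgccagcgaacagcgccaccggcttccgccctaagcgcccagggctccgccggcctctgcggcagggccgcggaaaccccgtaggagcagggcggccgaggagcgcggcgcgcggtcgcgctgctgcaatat
Eif1ad (chr19:5366563-5366862, plus strand): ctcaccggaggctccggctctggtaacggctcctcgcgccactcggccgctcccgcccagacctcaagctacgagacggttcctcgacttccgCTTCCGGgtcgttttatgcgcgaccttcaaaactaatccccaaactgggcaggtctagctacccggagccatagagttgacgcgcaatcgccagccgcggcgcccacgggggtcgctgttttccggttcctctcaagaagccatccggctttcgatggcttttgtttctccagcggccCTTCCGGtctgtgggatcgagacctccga
The Eif4a1 window held an E-box at -189 and CCAAT at -92, -43 and 43 from the start, the Eif4a2 window held none of these letters, and the Eif1ad window held the ETS letters, on the reverse strand, at -157 and 21. Among the 42 windows 14 (33.3%) held the ETS letters, against 18.2% of 10491 windows of tested genes, and 8 (19%) the E-box, against 10.2%. CCAAT was found in 31% against 38.6%, TATAAA in 7.14% against 7.42% and the cAMP response element in 0 windows against 3.18%. These shares describe letters in 1 window per gene, and factor binding was not measured.

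The repressors that compete with eIF4G for eIF4E were led by Eif4ebp1 (ENSMUSG00000031490.6, chromosome 8, 27260329 to 27276674, plus strand, GRCm38), the mTORC1 target 4E-BP1. It lay at 16.7 to 41.1 CPM (median 24.7) with fish oil/pectin and 14.2 to 19.5 CPM (median 16) with corn oil/cellulose. The ranges overlapped only through the fish oil/pectin libraries without the GC prefix. The log2 fold change was 0.58 ± 0.13 (adjusted p = 0.0026), the second largest increase of the family, with 0.79 in GC-named libraries and 0.17 in the others, and it was 0.45 to 0.65 with each library left out in turn. Eif4ebp2, the paralog that is more abundant per length here (44.5 CPM per kb against 7.91), did not pass. It lay at 212 to 310 CPM (median 255) with fish oil/pectin and 230 to 320 CPM (median 260) with corn oil/cellulose (-0.02 ± 0.05, adjusted p = 0.784; -0.03 in GC-named, -0.01 in the other libraries). The log2 ratio of Eif4ebp1 to Eif4ebp2 was -4.16 to -2.51 (median -3.41) with fish oil/pectin and -4.48 to -3.78 (median -4.02) with corn oil/cellulose. The log2 ratio of Eif4ebp1 to Eif4e was -1.85 to -0.72 (median -1.20) with fish oil/pectin and -1.83 to -1.25 (median -1.47) with corn oil/cellulose. Both ratios overlapped between the diets over all libraries, although Eif4ebp1 to Eif4ebp2 did not within GC-named libraries (-3.53 to -2.51 with fish oil/pectin, -4.08 to -3.78 with corn oil/cellulose). Eif4ebp3 (0.08) and Eif4enif1 (-0.05), whose product carries eIF4E into the nucleus, did not pass.

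Among the factors of subunit joining and later steps 3 of 5 genes were higher and 1 was lower, with a median log2 fold change of 0.32. Eif5a (ENSMUSG00000078812.10, chromosome 11, 69916714 to 69921958, minus strand, GRCm38) codes for the hypusine-bearing factor that relieves stalled ribosomes in elongation and termination, and it had the largest increase of the family. Its level was 479 to 830 CPM (median 537) with fish oil/pectin and 323 to 421 CPM (median 374) with corn oil/cellulose. Every fish oil/pectin library stood above every corn oil/cellulose library, with a log2 fold change of 0.60 ± 0.09 (adjusted p = 0.000482), 0.68 in GC-named libraries and 0.45 in the others. Its paralog Eif5a2 (chromosome 3, 28781276 to 28798846, plus strand, GRCm38) was lower at -0.87 ± 0.28 (adjusted p = 0.0182; -0.83 in GC-named, -0.93 in the other libraries), but from very low levels. It had 0.194 to 0.441 CPM (median 0.331) with fish oil/pectin and 0.372 to 1.44 CPM (median 0.586) with corn oil/cellulose, which was 3 to 8 counts per fish oil/pectin library and 6 to 21 counts per corn oil/cellulose library.

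Eif6 (ENSMUSG00000027613.15, chromosome 2, 155819832 to 155826925, minus strand, GRCm38), whose product keeps the large subunit from joining too early, lay at 191 to 400 CPM (median 285) with fish oil/pectin and 155 to 221 CPM (median 194) with corn oil/cellulose. It rose by 0.46 ± 0.09 (adjusted p = 0.000958), with 0.60 in GC-named libraries and 0.19 in the others. Eif5b, the GTPase of subunit joining, had 145 to 258 CPM (median 172) against 113 to 175 CPM (median 142) with corn oil/cellulose (0.32 ± 0.08, adjusted p = 0.00428; 0.37 in GC-named, 0.24 in the other libraries). Eif5, which triggers GTP hydrolysis on eIF2, did not pass, at 213 to 299 CPM (median 240) with fish oil/pectin and 225 to 300 CPM (median 261) with corn oil/cellulose (-0.03 ± 0.06, adjusted p = 0.723; -0.08 in GC-named, 0.07 in the other libraries). Eif4a3, named for the eIF4A family although its product is the helicase of the exon junction complex, rose by 0.48 ± 0.08 (adjusted p = 0.000672; 0.51 in GC-named, 0.42 in the other libraries). Its libraries lay at 107 to 174 CPM (median 120) with fish oil/pectin and 73.4 to 107 CPM (median 87.5) with corn oil/cellulose, and they met at 107 CPM.

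The diet effect was also estimated within each form of library name, where 5 against 5 GC-named libraries stand beside 2 against 4 others. In a joint edgeR fit with a diet effect for each name form, 31 of the 52 genes were higher and 6 lower in GC-named libraries, against 23.1% and 21.8% of all genes and 45% in either direction. In the other libraries 0 passed, as did 0 of all genes (edgeR), while 16 members and 2385 of all genes had an unadjusted p under 0.05. Fitted alone with edgeR, these libraries gave 8 members as higher: Eif1ad, Eif2s1, Eif3b, Eif3d, Eif4a1, Eif4a3, Eif4e and Eif5a. That fit called 614 genes higher and 286 lower of 14157 in all. The median log2 fold change of the 52 genes was 0.28 in GC-named libraries and 0.12 in the others, against 0.003 and -0.012 over all genes. Of the 35 genes called in the fit to all libraries, 31 had the same sign in either form, and so had 89.6% of all genes called. The direct test of the difference passed for 6 members (Eif2ak2, Eif3a, Eif3f, Eif3k, Eif4e2 and Eif4g1), against 8.41% of all genes. That count fell to 0 without fish oil/pectin library 2, to 1 without fish oil/pectin library 1, to 2 without corn oil/cellulose library 3, 4 or 8, and to 3 without fish oil/pectin library 6.

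**Figure D4:**
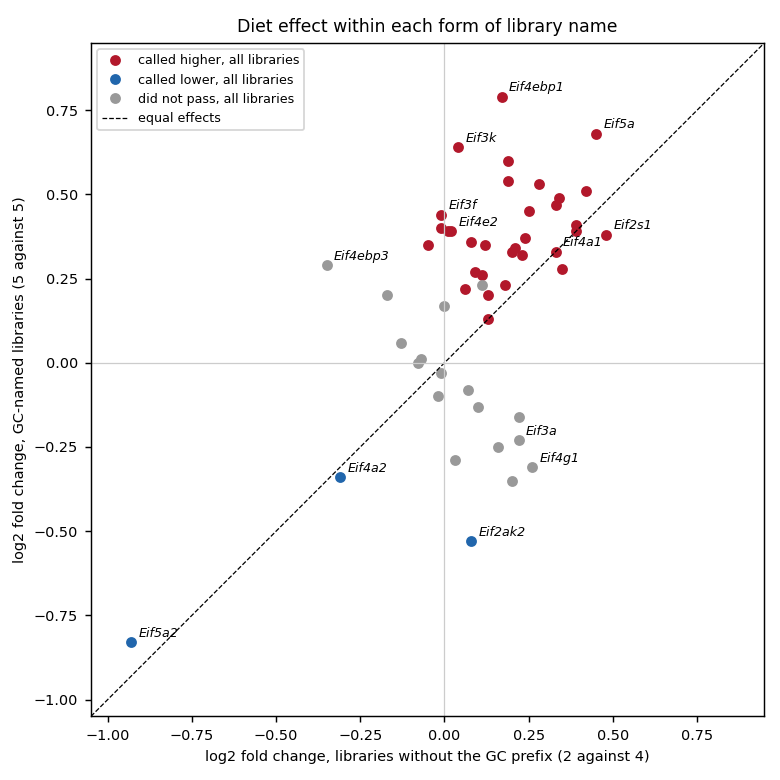
Log2 fold change of fish oil/pectin over corn oil/cellulose in the libraries without the GC prefix (x axis, 2 against 4) and in the GC-named libraries (y axis, 5 against 5) for the 52 genes, from a joint fit; colour gives the call over all libraries and the dashed line marks equal effects. Eif5a, Eif4a1, Eif2s1 and Eif4a2 lie near the line, and Eif3k, Eif4ebp1, Eif2ak2 and Eif4g1 lie off it.

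Gene length moved with the diet difference across these genes as it did across all genes. Spearman's correlation of exon length with the log2 fold change was -0.50 over the 52 members and -0.42 over 14261 genes with a known length, and genes of 1 library share its depth and RNA quality, so these values are descriptions. Of the 26 shortest members (744 to 4468 bases) 22 were higher and 0 lower, with a median of 0.29, and of the 26 longest (4951 to 11063 bases) 10 were higher and 3 lower, with a median of 0.03. With each library's trend on length removed, the medians were 0.17 and 0.15 and 28 members were higher and 3 lower, 26 of them the same higher genes, beside 2489 and 2134 of all 14321 genes. Eif1 (0.04), Eif1b (0.02), Eif2b4 (0.15), Eif3c (0.06), Eif3f (0.17) and Eif3h (0.05) then lost their calls, and Eif2a (0.19) and Eif2b3 (0.28) gained one. The long genes Eif5b (0.51) and Eif4e (0.46) stood higher than before. What gave rise to the length trend was not tested.

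**Figure D5:**
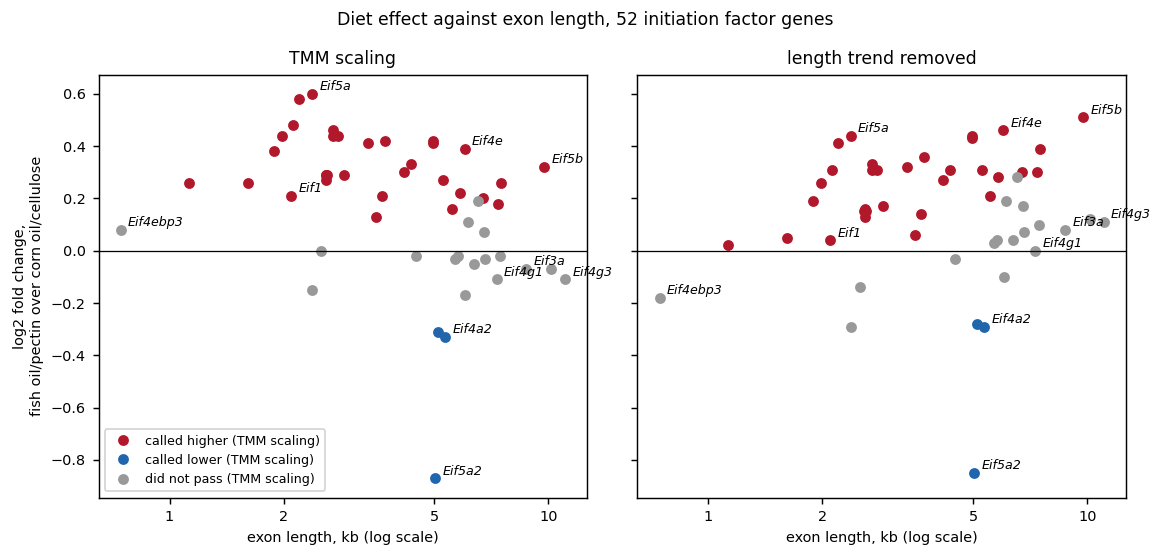
Log2 fold change of fish oil/pectin over corn oil/cellulose (y axis) against exon length in kb (x axis, log scale) for the 52 genes, with TMM scaling (left) and with each library's length trend removed (right); colour gives the call with TMM scaling in both panels. Short genes lie higher than long ones on the left, and Eif5b and Eif4e lie highest on the right.

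The rest of the translation machinery was described from lists of genes with the same fit, in which 21.7% of all genes were higher and 20.1% lower. Of 8 elongation factor genes tested 6 were higher and 0 lower, with a median log2 fold change of 0.33. They included Eef1g (0.47 ± 0.08, adjusted p = 0.000726) and Eef1d (0.54 ± 0.10, adjusted p = 0.000819), subunits of the complex that recharges the tRNA carrier eEF1A, and Eefsec (0.43 ± 0.08, adjusted p = 0.000737), which delivers selenocysteine. In GC-named and other libraries the values were 0.61 and 0.19 for Eef1g, 0.71 and 0.21 for Eef1d, and 0.44 and 0.42 for Eefsec. Termination and recycling genes were higher in 2 of 6, namely the release factors Etf1 (0.23 ± 0.06, adjusted p = 0.00355) and Gspt1 (0.20 ± 0.08, adjusted p = 0.0438), and the rescue factor Pelo had 0.33 ± 0.14 (adjusted p = 0.0656). Within GC-named and other libraries Etf1 was at 0.24 and 0.22, Gspt1 at 0.11 and 0.38, and Pelo at 0.46 and 0.08. Accessory initiation and eIF5A-modifying genes were higher in 5 of 11, with a median of 0.16. Among these were the reinitiation factor Denr (0.45 ± 0.07, adjusted p = 0.000526), the eIF5-like protein gene Bzw2 (0.39 ± 0.08, adjusted p = 0.00121) and Dohh (0.42 ± 0.11, adjusted p = 0.00422), whose enzyme completes the hypusine of eIF5A. Within GC-named and other libraries Denr was at 0.52 and 0.31, Bzw2 at 0.44 and 0.30, and Dohh at 0.61 and 0.05.

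In lists of regulators tied to the initiation factors, genes were called in both directions. In the mTORC1 pathway 6 of 24 genes were higher and 4 lower, with a median of -0.01, beside 21.7% higher and 20.1% lower of all genes. This list mixes activators of mTORC1 with brakes on it, so its counts and median give no direction for the pathway. Lamtor1, Lamtor2, Lamtor4, Lamtor5, Rraga and Akt1s1 were higher, and Tsc1, Tsc2, Deptor and Sesn3 were lower. The Ragulator genes Lamtor2 (0.42 ± 0.08, adjusted p = 0.00085) and Lamtor1 (0.37 ± 0.08, adjusted p = 0.00124) anchor mTORC1 at lysosomes. Tsc1 (-0.46 ± 0.08, adjusted p = 0.000737) is a brake on mTORC1. In GC-named and other libraries the values were 0.59 and 0.08 for Lamtor2, 0.51 and 0.10 for Lamtor1, and -0.56 and -0.27 for Tsc1. Of 14 genes of mRNA end binding and cap control 2 were higher, the nuclear cap-binding genes Ncbp2 (0.30 ± 0.06, adjusted p = 0.000924) and Ncbp1 (0.28 ± 0.08, adjusted p = 0.0103), and 3 lower. Gigyf1, a partner of Eif4e2 in repression, fell by 0.49 on the log2 scale (adjusted p = 0.000702). Within GC-named and other libraries Ncbp2 was at 0.37 and 0.18, Ncbp1 at 0.21 and 0.41, and Gigyf1 at -0.65 and -0.20. Of 8 genes that set eIF2 phosphorylation or, like Atf4, act downstream of it, 0 were higher and 2 lower. These were Impact (-0.26 ± 0.08, adjusted p = 0.0146) and Gcn1l1 (-0.31 ± 0.11, adjusted p = 0.0256), an inhibitor and an activator of GCN2. Ppp1r15a, which directs dephosphorylation of eIF2, was at -0.33 ± 0.15 (adjusted p = 0.0733). In GC-named and other libraries the values were -0.34 and -0.09 for Impact, -0.47 and -0.03 for Gcn1l1, and -0.52 and 0.08 for Ppp1r15a.

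The members' increase was also set beside the marker levels. A summary score of non-epithelial markers, as mean log2(CPM + 1), was 0.83 to 0.97 with fish oil/pectin and 0.85 to 1.47 with corn oil/cellulose, and that of cycling markers was 5.66 to 6.77 with fish oil/pectin and 5.42 to 6.04 with corn oil/cellulose. Name form and diet together accounted for 65.9% and 55.2% of the variance of these scores. With the non-epithelial score as a covariate 0 of the 52 members passed in edgeR, as against 2 of all genes, although 21 members had an unadjusted p under 0.05 and their median log2 fold change was 0.17. With the cycling score 2 members were higher (Eif3f at 0.38, Eif3i at 0.36) and 2 lower (Eif2ak3 at -0.37, Eif4g3 at -0.32), as against 389 and 484 of all genes, and the members' median was 0.14.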

How the data were processed

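Colonocyte RNA from 7 fish oil/pectin and 9 corn oil/cellulose libraries was analysed from the raw counts that the authors deposited, 1 value per gene symbol and library. The submitters' processing notes name GRCm38, HTSeq 0.11.1 and STAR 2.6.0a. The strand setting and annotation release were not given in the sources at hand. Per the labels' protocols, 200 ng of total RNA entered a stranded poly(A) preparation, and the extraction text speaks of RNA of the colon where the labels name colonocytes. All 54392 rows were read, and 0 per-sample columns were left unused. No pair of libraries of a diet agreed within sampling noise (chi-square per degree of freedom 8.2 to 141 over 57 pairs).

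Counts were scaled with TMM, filtered with filterByExpr (14321 genes, 99.9% of counts) and tested with edgeR 4.0.16 (R 4.3.3), a robust quasi-likelihood fit of diet with the name form as a term. SE was derived from the log2 fold change and its F statistic. A joint fit gave an effect per name form. On simulated counts for these libraries, the test recovered 100 of 100 genes changed by 1 on the log2 scale and 86 of 100 changed by 0.5, with 7 false calls among 13967 unchanged genes. Changed genes were drawn from the more abundant ones, and neither smaller changes nor effects of name form or gene length were simulated. The called members had a median absolute log2 fold change of 0.31. Alternatives used DESeq2 1.42.0, limma 3.58.1 (voom), other scalings and filters, subsets of libraries, a loess on exon length (span 0.3) and marker scores as covariates. Positions, exon lengths and overlaps come from GENCODE M21 (GRCm38), to which all 54 members matched, and 22 members share exon positions with another gene (14 on the opposite strand). Where strand was not used, such reads cannot be told apart.

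Values are given for the members past the threshold with the 8 most positive and the 8 least positive log2 fold changes, for members chosen for their role, and for the 3 genes of lowest p in each related list. The members and lists were chosen with earlier results of these data known.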

Additional observations from a re-analysis of the deposited data

Results flagged for a closer look

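A sample far from the rest of its group was found in 8 of 104 groups, where chance gives about 1 in 20. Fish oil/pectin library 7 held 3 of them: its Eif1ad was 82.1 CPM with the next library at 65, its Eif3b was 442 CPM with the next at 334, and its Eif4b was the lowest at 381 CPM with the next at 555. Eif3e was 239 CPM in fish oil/pectin library 6, with the next at 215. In corn oil/cellulose libraries, Eif2ak4 was 33 CPM in library 2 (next 28.9), Eif2b3 was 19.9 CPM in library 8 (next 15.2), Eif4ebp3 was 18.7 CPM in library 6 (next 14.1) and Eif5a2 was 1.44 CPM in library 4 (next 0.89).

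The diet effect differed between GC-named and other libraries for 6 of the 52 members by the joint edgeR test, as it did for 8.41% of all genes. The log2 difference, GC-named minus other, was -0.60 for Eif2ak2, -0.44 for Eif3a, -0.57 for Eif4g1, 0.46 for Eif3f, 0.60 for Eif3k and 0.36 for Eif4e2. Leaving out each of the 16 libraries in turn, the call was lost for Eif4g1 without fish oil/pectin library 2 (adjusted p = 0.139), for Eif3k without fish oil/pectin library 1 or 2 (up to 0.162), for Eif3a and Eif4e2 without any 1 of 6 libraries, for Eif2ak2 of 8 and for Eif3f of 10. With the length trend removed, Eif4e2 (0.51, adjusted p = 0.0341) and Eif4g1 (-0.44, adjusted p = 0.0435) still passed.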

How the results depend on the processing

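RLE scaling, DESeq2, limma, no name form term, no filter and a minimum of 1 CPM in 7 libraries gave 28 to 33 members higher and 2 or 3 lower, against 32 and 3. Over all 12930 to 28219 genes tested these settings called 2655 to 3133 higher and 2128 to 3171 lower, against 3103 and 2876. Member counts moved further in other settings. GC-named libraries alone gave 28 higher and 6 lower (all genes 2750 and 2913 of 13735), the others alone 8 higher and 0 lower (614 and 286 of 14157), the lower series of name numbers alone 20 higher and 1 lower (1194 and 1056 of 14265), an adjusted p under 0.01 25 higher and 1 lower (1981 and 1608), the non-epithelial score 0 and 0 (2 and 0), and the cycling score 2 higher (389). Without fish oil/pectin libraries 6 and 7 together 26 were higher and 2 lower (2171 and 2156). With the length trend removed 2 members differed between name forms, and with total counts 7. Leaving out each library gave 29 to 32 higher, 2 to 4 lower and 0 to 9 that differed between name forms. Of all genes 2660 to 3146 were then higher and 2416 to 2936 lower. Some called members lost their call and had an estimate of the other sign. These were Eif1 (-0.04) and Eif2ak2 (0.09) when libraries lacking the GC prefix were fitted alone. With the non-epithelial score they were Eif1 (-0.01) and Eif1b (-0.02), and with the cycling score Eif1a (-0.05). Fewer libraries enter the subsets. Otherwise the cause was not tested. Eif5a2, at 21 counts or fewer, was filtered out in some settings.

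Same-numbered libraries showed no clear pairing: 4 of 7 such pairs correlated above 0.1, and 1 of 7 fish oil/pectin libraries correlated best with its own number. These correlations used deviations from the diet mean, and the name form was not removed. Pairs 1 (0.48) and 2 (0.42) lack the GC prefix in both diets, so the check cannot settle whether the numbers pair libraries. With a replicate block beside the name form 25 members were higher and 1 lower, beside 1948 and 1546 of all 14321 genes.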
